A study of Mus musculus with 2 samples.

Results

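Galectins, S100 proteins of the A group and annexins were examined in CH cells, the circulating cells with homing ability that were sorted from mouse blood as small, viable, DNA-containing events without CD45 and lineage antigens. The members were all genes whose symbol is Lgals, S100a or Anxa followed by a number alone. Each is the only gene named by a probe set. This rule used no measured value, but it was chosen with earlier results of these data known. The members were 30 of 18193 genes on the array, with 8 galectins, 11 S100 genes and 11 annexins read by 50 probe sets. A probe set is several short oligonucleotides that read 1 transcript region. S100a11 and Anxa11 are named only together with other genes and S100a2 by no probe set used, so these 3 genes were not analysed here.

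RNA came from 2 pools of CH cells, labelled PlCH, each from the peripheral blood of 15 adult C57bl/6 mice of both sexes aged 7 months, without a treatment in the labels, and each pool was hybridised to 1 array. The general methods of the study describe younger mice and smaller pools. There was 1 group, so the data give levels and no comparison between conditions, and with pooled bulk RNA fewer cells of a type cannot be told apart from less RNA per cell. The arrays had medians of 5.54 and 5.52 (log2) and correlated with r = 0.997 over 45037 probe sets, which are not independent replicates. Of the markers of the sorted-out cells, Ptprc, which encodes CD45, was at 4.95 and 5.24 on arrays 1 and 2 with its highest probe set. The mean of that probe set did not differ from 5 in limma (adjusted p = 0.36), and the lowest probe set of Ptprc had a mean of 3.58. Other blood cell markers stood on both sides of 5. By limma, 6 of 9 monocyte and macrophage markers were above 5, with Lyz2 highest at 9.58. So were 3 of 5 T cell, 2 of 5 B cell and 1 of 8 neutrophil markers, against 69.1% of all genes.

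Galectins are lectins that bind β-galactoside sugars on glycoproteins, and outside the cell they crosslink receptors and matrix. S100 proteins are small calcium sensors with EF-hands that change shape on calcium binding and then grip target proteins. Annexins bind acidic phospholipids in the presence of calcium and act in vesicle traffic, in membrane repair and at the cell surface. The families meet in 1 complex, in which S100a10 joins annexin A2. S100a8, S100a9 and annexin A3 are known for their abundance in neutrophils. S100a4, S100a6, galectin-1 and annexins A1, A2 and A5 are abundant in fibroblasts and other stromal cells, though not only there.

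Promoter sequences are shown for S100a4, S100a5 and S100a6, which lie side by side, with a far lower signal for S100a5. Also shown are those of S100a8, from the same chromosome, and of 2 annexin genes that share a motif position but not a level. Each is the 100 bases before a transcription start of the RefSeq annotation, GRCm38.p6, written 5′ to 3′ on the strand of the gene, with the motif TATAAA in capitals. The first 4 lie on chromosome 3 at chr3:90603670-90603769, chr3:90608422-90608521, chr3:90612794-90612893 and chr3:90668971-90669070, all on the plus strand, and the annexin promoters at chr19:20390672-20390771 and chr8:62123194-62123293, both on the minus strand.
S100a4: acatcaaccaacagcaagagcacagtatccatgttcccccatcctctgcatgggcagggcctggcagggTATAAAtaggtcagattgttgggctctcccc
S100a5: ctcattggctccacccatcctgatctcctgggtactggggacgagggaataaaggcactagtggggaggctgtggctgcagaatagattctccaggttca
S100a6: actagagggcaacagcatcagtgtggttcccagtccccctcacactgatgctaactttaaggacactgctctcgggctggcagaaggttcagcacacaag
S100a8: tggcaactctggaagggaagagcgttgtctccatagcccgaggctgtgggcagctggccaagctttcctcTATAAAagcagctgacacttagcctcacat
Anxa1: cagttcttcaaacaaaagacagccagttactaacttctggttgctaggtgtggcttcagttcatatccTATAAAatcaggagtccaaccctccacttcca
Anxa10: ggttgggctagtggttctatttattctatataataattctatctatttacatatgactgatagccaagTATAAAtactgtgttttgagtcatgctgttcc

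TATAAA, the core of the TATA box that positions transcription, was searched on both strands of windows of 300 bases, from 250 before to 50 after a start. Lgals1, Lgals12, S100a10, S100a14, Anxa3, Anxa6 and Anxa13 had no window in the sequences used and are not counted here. Of the 23 member genes with a window, 7 held TATAAA, in 7 of 30 windows, against 13.6% of all 32851 windows. Its first base lay between -35 and -25 on the strand of the gene in 4 of the 30 windows, those of S100a4 (-31), S100a8 (-30), Anxa1 (-32) and Anxa10 (-32), against 1.75% of all windows. As described below, S100a4 and Anxa1 were far above the limit used for the arrays, S100a8 was close to it and Anxa10 was below it, so these 4 genes did not share a level.

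Most members gave a signal, and 17 of the 30 gave a clear one. A gene counted as above the limit if any of its probe sets exceeded 5 (log2) on both arrays. In the study, genes were dropped before clustering if they lay under this value in all of the CH and public data. Of the 30 genes, 25 were above 5, against 71.2% of all genes. Above 8 were 17 members, against 37.0% of all genes, and above 12 were 7, against 3.09%. The level of a gene is the mean of both arrays for its highest probe set, and the median level was 9.20 over the members and 6.84 over all genes. With the median over probe sets in place of the highest, these medians were 7.48 and 6.04, and 15 members were above 8, against 25.1% of all genes. By highest probe set, no level of a member lay between 6.54 and 9.12. This gap rests on the choice of probe set. With the median over probe sets, Anxa6 at 6.82, Anxa7 at 8.13, S100a16 at 8.56, S100a1 at 8.67 and Lgals8 at 8.92 fell within it. Probe affinity adds to the level of each probe set, so levels do not order the transcripts of different genes.

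**Figure D1:**
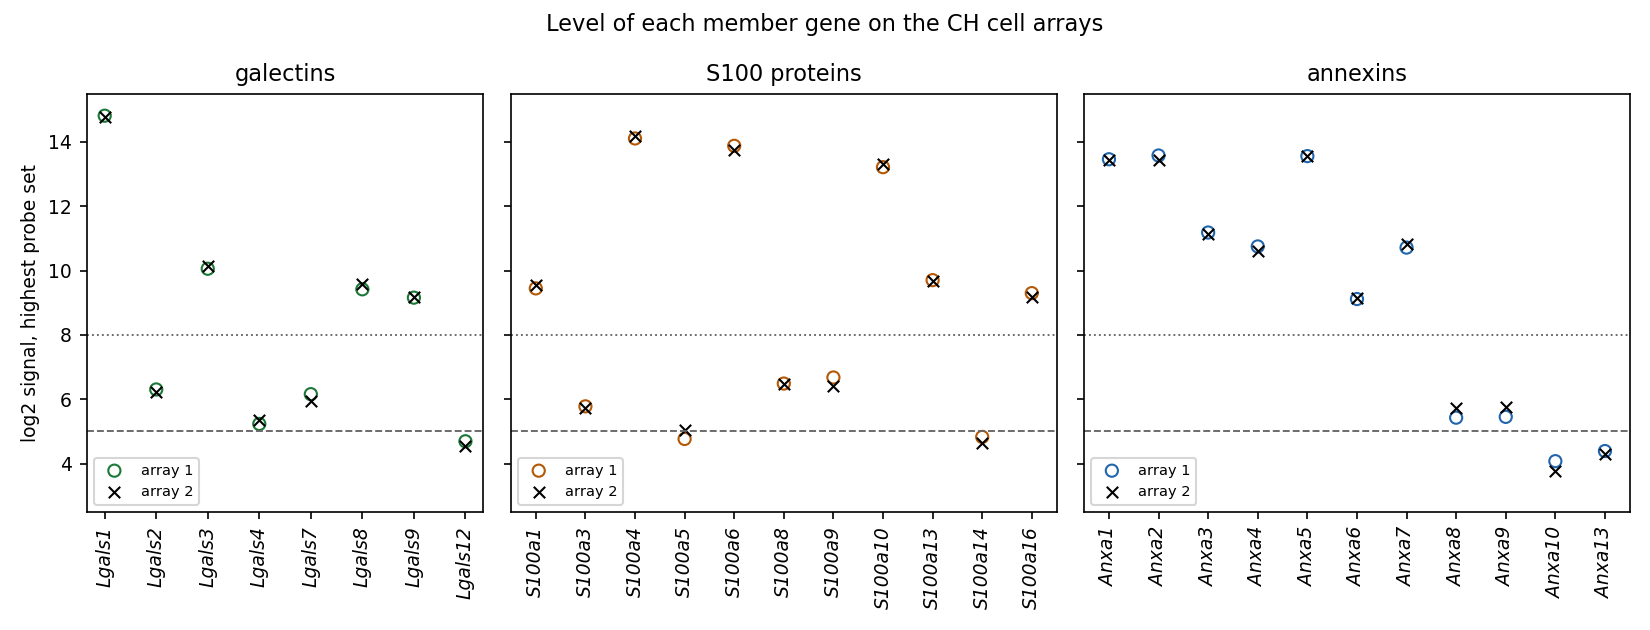
Log2 signal of the highest probe set of each of the 30 member genes on the vertical axis, with a circle for array 1 and a cross for array 2, in 3 panels for galectins, S100 proteins and annexins. Dashes mark 5 and dots 8 (log2), 17 genes lie above 8 on both arrays, and no gene lies between levels of 6.54 and 9.12. With the median over probe sets this gap is not empty.

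The mean of each probe set was also set against 5 with limma, with Benjamini-Hochberg adjustment over 45037 probe sets. Of the 50 probe sets of members, 40 were above 5 at an adjusted p under 0.05, against 54.8% of all probe sets, and 7 were below 5, against 36.4%. The other 3 differed from 5 by less than the test could show. Here and below, all probe sets include those that name several genes or are not listed in the annotation, unlike the members. Counted by gene, 25 of 30 had a probe set above 5 in limma, against 69.1% of all genes. Passing this test was not enough to tell a transcript from noise, because 11 of 84 probe sets of smell, taste and pheromone receptors were also called above 5. These receptors had a median of 4.06, a 95th percentile of 6.04 and a highest signal of 6.92, and none of their 76 genes was above 8. Of the 25 members above 5, 17 were above 6.92 and 8 were not. In the first group the spread between arrays was small, since the 2 arrays differed by at most 0.18 for the highest probe set of any of the 17 genes.

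Among the galectins, Lgals1, Lgals3, Lgals8 and Lgals9 were above 8, while Lgals2, Lgals7 and Lgals4 were near the limit and Lgals12 was below it. Lgals1 encodes galectin-1, a secreted dimer of stromal and other cells. Its signal was 14.81 and 14.77 on arrays 1 and 2, a level of 14.79 ± 0.03 (SD, n = 2 arrays). Its other probe set was at 14.68 and 14.69, so both probe sets gave the same picture near the top of the range of the arrays, 15.27, where differences can be compressed.

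Lgals3, the chimeric galectin with a self-associating tail, was at 10.06 and 10.14, a level of 10.10 ± 0.06 (SD, n = 2 arrays). Lgals8, a galectin with tandem sugar-binding domains that marks damaged vesicles, was at 9.42 and 9.59, and its other probe set at 8.46 and 8.23. Lgals9, also of the tandem type and a ligand of the receptor Tim-3, was at 9.16 and 9.18. All 4 genes were above 8 on both arrays. The largest adjusted p from limma among them was 2.3e-07, for Lgals8.

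Lgals2, a galectin of the digestive tract, was at 6.30 and 6.23 with 1 probe set and at 5.39 and 5.59 with the other. Lgals7, a galectin of stratified epithelia, was at 6.16 and 5.94. Lgals4, a galectin of gut epithelium, was at 5.23 and 5.37 (adjusted p = 0.012 from limma). These 3 genes passed the test against 5 but lay below the highest receptor signal of 6.92. Lgals12, a galectin of adipocytes, was below 5 with both probe sets, at 4.70 and 4.54 and at 3.59 and 3.90 (highest adjusted p = 0.0053 from limma). Of 7 galectins above 5, 4 were above 8, and the family median was 7.72.

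Markers of the tissues in which these low galectins are known stood as follows. All counts of markers stand against 71.2% of all genes above 5 and 37.0% above 8. Of 7 measured markers of stratified epithelium 4 were above 5, led by Krt10 at 7.88 and Sfn at 6.14, while Krt14 was at 4.70 and Krt1 at 4.30. Of 7 gut epithelium markers, a list that holds Lgals4 itself, 2 were above 5, Cdx2 at 7.46 and Lgals4. Of 5 adipocyte markers none was above 5 on both arrays or by limma, and 4 were below 5 by limma, with the highest, Fabp4, at 4.91 and Adipoq at 3.67. The part of these cell types in the galectin signals was not tested.

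S100 genes split into a group of 6 well above the limit and a group of 5 near or below it. S100a4, also known as fibroblast-specific protein and a partner of non-muscle myosin, was at 14.10 and 14.17 on arrays 1 and 2, a level of 14.14 ± 0.05 (SD, n = 2 arrays). S100a6, called calcyclin, was at 13.87 and 13.73. S100a10, which has lost calcium binding and pairs with annexin A2, was at 13.21 and 13.32, and these 3 genes were above 12 on both arrays.

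S100a10 was also read by a probe set at 12.42 and 12.57 and by another at 5.51 and 5.65, all above 5 by limma (highest adjusted p = 8.1e-04). S100a13, which takes part in the release of FGF1, was at 9.70 and 9.68. S100a1, a regulator of calcium handling in heart and muscle, was at 9.44 and 9.55 with 1 probe set and at 7.90 and 7.78 with the other. S100a16, a widely expressed member, was at 9.30 and 9.16, with its other probe set at 7.82 and 7.97. For both of the last 2 genes, only the highest probe set was above 8, while the other was above 5 on both arrays.

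S100a8 and S100a9 form calprotectin, the main S100 complex of neutrophils and monocytes. S100a8 was at 6.49 and 6.48 on arrays 1 and 2, and S100a9 at 6.68 and 6.40. Both were above 5 by limma (adjusted p = 1.0e-05 and 2.9e-05) and above the 95th percentile of the receptor probe sets, 6.04, but below the highest of them, 6.92. Neutrophil markers without S100 genes were above 5 on both arrays in 3 of 8 cases and above 5 by limma in 1, Elane, at 5.78. Camp was at 5.07, while Mpo, Csf3r, Mmp8 and Cxcr2, at 4.73, 4.42, 4.35 and 4.03, were below 5 by limma (adjusted p = 0.016 at most). Summed on the linear scale, the 8 neutrophil markers reached 239 on array 1 and 235 on array 2. Such sums include the background of each probe set, so they set the arrays side by side and do not compare cell types or measure their content. Monocyte and macrophage markers were above 5 in 6 of 9 cases, against 71.2% of all genes, and above 8 in 2, against 37.0%, led by Lyz2 at 9.58 and Cd14 at 8.25, while Itgam, an integrin of both lineages, was at 3.85. Their linear sums were 1574 and 1416. The part of these cells in the signals of S100a8 and S100a9 was not tested.

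The other 3 S100 genes were nearest to the limit. S100a3, a protein of the hair cuticle, was at 5.78 and 5.72 (adjusted p = 2.0e-04 from limma). S100a5, known from olfactory neurons, was at 4.77 on array 1 and 5.05 on array 2, on either side of the limit, and did not differ from 5 (adjusted p = 0.40). S100a14, a protein of epithelia, was at 4.83 and 4.65 and below 5 by limma (adjusted p = 0.026). Without array 1, S100a5 would count as above the limit and the S100 count would be 10 of 11 in place of 9.

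High and low S100 genes were interspersed along chromosome 3. In RefSeq, S100a1, S100a13, S100a14, S100a16, S100a3, S100a2, S100a4, S100a5, S100a6, S100a7a, S100a8 and S100a9 follow each other in this order with no other protein-coding gene between them. S100a14, below 5, stood between S100a13 and S100a16, both above 8. S100a5, at 4.91, stood between S100a4 and S100a6, at 14.14 and 13.80. Of these 3, the window before S100a4 holds TATAAA and those printed for S100a5 and S100a6 do not. S100a2 and S100a7a were not analysed here. S100a10 lies outside this row on the same chromosome. Arrays 1 and 2 gave the same pattern, apart from S100a5, which crossed 5 on array 2 only.

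**Figure D2:**
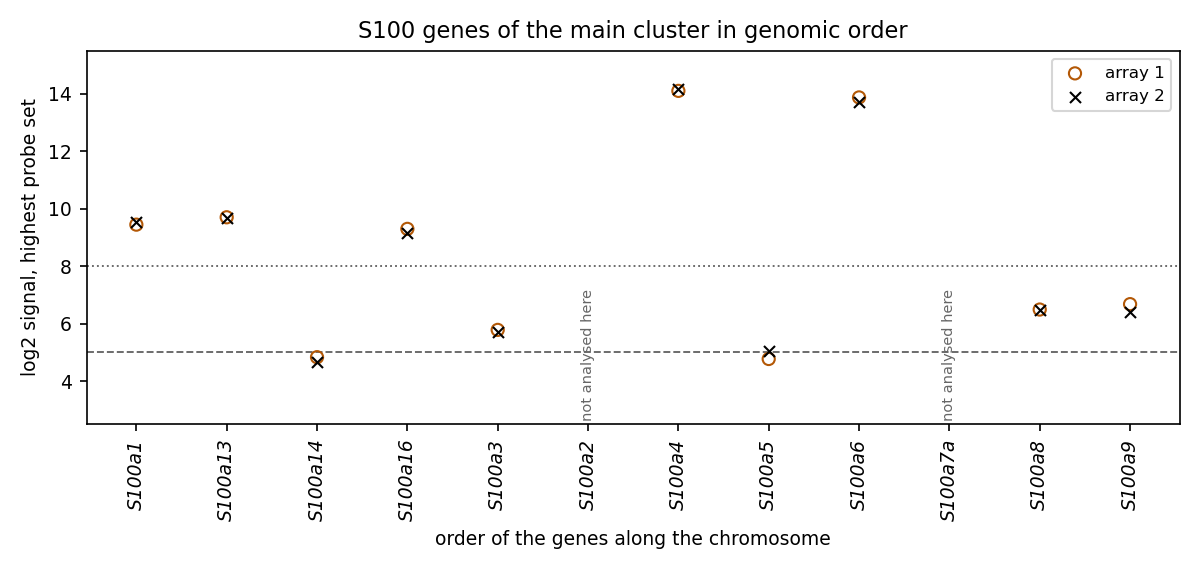
Log2 signal of the highest probe set on the vertical axis for the S100 genes of the chromosome 3 row in genomic order on the horizontal axis, which is not to scale, with a circle for array 1 and a cross for array 2. Dashes mark 5 and dots 8 (log2), and S100a5 near 4.91 stands between S100a4 at 14.14 and S100a6 at 13.80.

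Of 11 annexins, 7 were above 8 and 3 above 12, with a family median of 10.68. This median rests on the choice of probe set, since with the median over probe sets it was 6.82, with 5 annexins above 8. Anxa1, a mediator of resolution of inflammation induced by glucocorticoids, was at 13.46 and 13.43 on arrays 1 and 2. Anxa2, the partner of S100a10 and a surface receptor of plasminogen and its activator, was at 13.57 and 13.45. Anxa5, which binds phosphatidylserine and is used to stain apoptotic cells, was at 13.55 and 13.56, a level of 13.56 ± 0.003 (SD, n = 2 arrays). For all 3 genes the adjusted p of limma was 8.9e-08, the smallest value reached by any member, which Lgals1, S100a4, S100a6 and S100a10 also had.

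Anxa3, abundant in neutrophils, was at 11.18 and 11.14, while the neutrophil markers stood as given for S100a8 and S100a9. Anxa7, also called synexin and active in membrane fusion, was at 10.71 and 10.81, with other probe sets at 8.18 and 8.09 and at 6.86 and 6.66. Anxa4, a regulator of exocytosis in epithelia, was at 10.75 and 10.61 with its highest probe set. Anxa6, the annexin with a duplicated core, was at 9.11 and 9.13. All 4 genes exceeded 5 by far more than the spread between arrays (highest adjusted p of limma 1.9e-07, for Anxa6).

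The other 4 annexins were near or below the limit. Anxa8, known from epithelia, was at 5.43 and 5.72, with its other probe set at 5.26 and 5.57. Anxa9, an annexin with little calcium-dependent lipid binding, was at 5.45 and 5.77. Both passed limma's test against 5 (highest adjusted p = 0.0095, for the other probe set of Anxa8) but lay below the 95th percentile of the receptors. Anxa13, an annexin of gut epithelium, was at 4.39 and 4.31, and Anxa10, an annexin of the stomach, at 4.08 and 3.78, with its other probe set at 3.33 and 3.43. These 2 genes were below 5 by limma with every probe set (highest adjusted p = 3.9e-04).

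Fibroblast markers were above 5 on both arrays in 9 of 9 cases, against 71.2% of all genes, and above 8 in 7, against 37.0%, from Thy1 at 7.47 to Col1a2 at 14.27. Their linear sums were 52249 on array 1 and 50632 on array 2. Platelet markers were above 5 in 6 of 6 cases and above 8 in none, with Itga2b highest at 7.18 and Gp5 lowest at 5.41. Apart from Itga2b and Ppbp, at 6.99, these markers lay below the highest receptor signal, 6.92. Endothelial markers were above 5 in 1 of 6 cases, Cdh5 at 5.13, and in none by limma at an adjusted p under 0.05. Of 5 T cell markers 3 were above 5, with Cd3e highest at 6.61, while Il7r at 4.15 and Cd3g at 3.88 were below 5 by limma. Of 5 B cell markers 2 were above 5, with Cd22 highest at 5.81 and its lowest probe set at 3.63. Cd79a at 4.72 and Ms4a1 at 4.33 were below 5 by limma. All T and B cell markers lay below the highest receptor signal, 6.92. The part of any of these cell types in the levels of galectins, S100 genes and annexins was not tested.

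Of the members, 14 were read by more than 1 probe set, and the probe sets of 3 of them, Anxa1, Anxa2 and Anxa6, fell on both sides of 5. Among all 9010 genes with several probe sets this held for 42.0%. Anxa2 was at 13.51 with 1 probe set, at 6.07 with a second and at 3.65 with the third, which was below 5 by limma (adjusted p = 5.4e-05). Its probe sets spanned 9.86 on the log2 scale, the widest range among the members. Where the median over probe sets replaced the highest, Anxa2 was at 6.07 and Anxa6 at 6.82, both under 8, and Anxa1 at 9.21. Anxa1 was at 13.44 and 4.98, the lower not different from 5 (adjusted p = 0.85). Anxa6 had probe sets at 9.12, 8.17, 5.47 and 4.86, the lowest not different from 5 (adjusted p = 0.17). The median range over the 14 genes was 1.49, and the narrowest, 0.11, was that of Lgals1. The highest probe set had a RefSeq mRNA as its listed accession in 7 of the 14 genes. Which part of the transcript each probe set reads was not examined.

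**Figure D3:**
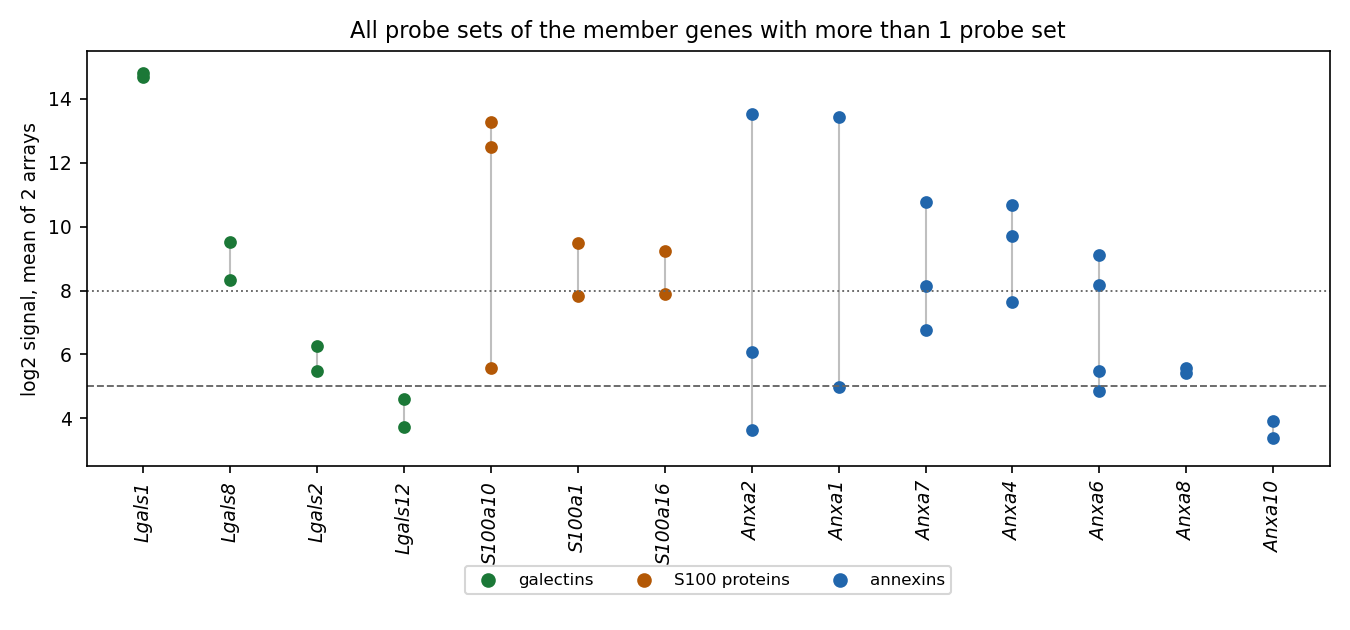
Mean log2 signal of 2 arrays on the vertical axis for each probe set of the 14 member genes with more than 1, joined by a line for each gene and coloured by family. Dashes mark 5 and dots 8 (log2), the probe sets of Anxa2 run between 3.65 and 13.51, and those of Lgals1 lie at 14.68 and 14.79.

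Between the arrays, 50 probe sets of members differed with an SD of 0.19 on the log2 scale, against 0.20 over all probe sets. The difference was under 0.2 for 74.0% of them and for 72.2% of all probe sets. Array 2 was higher for 26 probe sets and array 1 for 24. The largest difference, 0.57, belonged to the lowest probe set of Anxa4, at 7.35 on array 1 and 7.91 on array 2, while the other 2 probe sets of Anxa4 differed by -0.14 and 0.01. Both probe sets of Anxa8 were higher on array 2, by 0.29 and 0.31, and that of Anxa9 by 0.32. With 1 array for each pool, no test of a difference between the pools could be made.

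**Figure D4:**
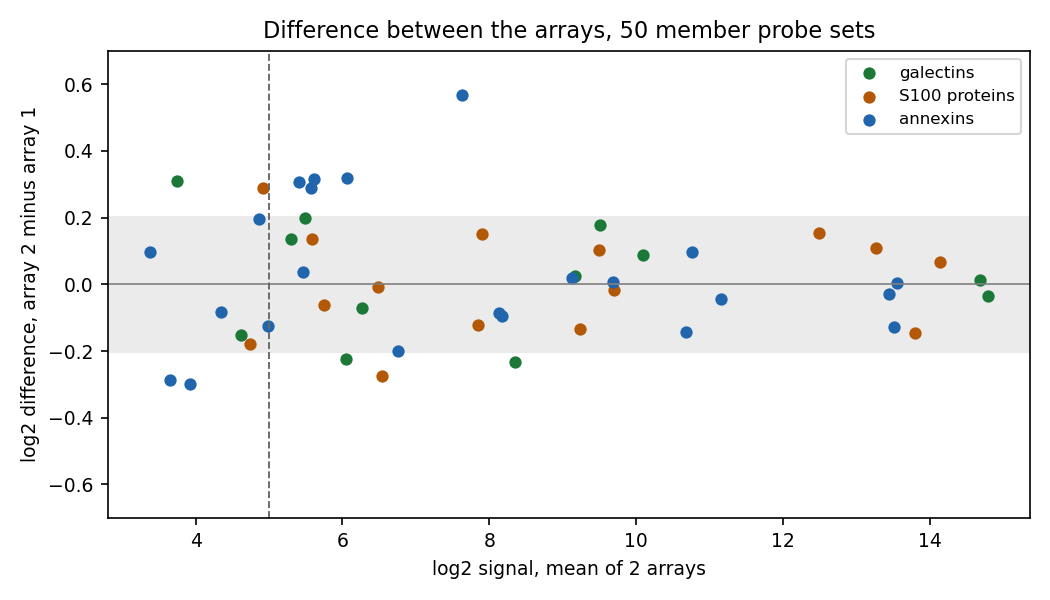
Log2 difference between the arrays (array 2 minus array 1) on the vertical axis against the mean log2 signal on the horizontal axis for the 50 probe sets of members, coloured by family, with the dashed line at 5. The grey band is 1 SD of the difference over all probe sets, 0.20, and the point farthest from 0, at 0.57, is a probe set of Anxa4.

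Partners of these proteins were counted in the same way, with the same background of 71.2% of genes above 5 and 37.0% above 8. Of 9 receptors and partners of S100 proteins, 8 were above 5 and 7 above 8. Ahnak, a scaffold held by the complex of annexin A2 and S100a10, was at 12.58, with its lowest probe set at 5.29. Myh9, the myosin bound by S100a4, was at 12.43, with its lowest probe set at 6.16, and Cacybp, the partner of S100a6, at 12.13 with its single probe set. Among receptors of extracellular S100 proteins, Bsg, which binds S100a9, was at 12.78 with its single probe set. Tlr4, a receptor of S100a8 and S100a9, was at 8.84 and 9.18 on arrays 1 and 2, with its lowest probe set at 3.67. Ager, which encodes RAGE, was at 6.10 and 5.57, with its lowest probe set at 5.25. Cd36 was at 5.12 and 4.76 and did not differ from 5 (adjusted p = 0.59 from limma).

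For the plasminogen system at the cell surface, 5 of 6 measured genes were above 5 and 3 above 8. Plaur, the receptor of urokinase, was at 10.43 and 10.34, Plgrkt, a plasminogen receptor, at 9.72 and 9.80, and Plat, the tissue activator that binds annexin A2, at 8.18 and 8.05, with its lowest probe set at 4.57. Serpinb2, an inhibitor of the activators, was at 7.55 and 7.61. Plau, which encodes urokinase itself, was near the limit at 5.31 and 5.28 (adjusted p = 0.0096), and Plg, which encodes plasminogen and is made mainly in liver, was below it at 4.17 and 4.25 (adjusted p = 1.7e-04). Of the receptors of annexin A1 only Fpr2 was measured, at 5.18 and 5.19, with an adjusted p of 0.048 against 5.

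Partners of annexins in membrane repair were above 5 in 9 of 10 cases and above 8 in 7. Chmp4b, an ESCRT subunit, was at 12.04, Capns1, the small subunit of calpains, at 11.76, and Cav1, which encodes caveolin, at 11.74. Myof, a ferlin of many cell types, had probe sets at 10.42 and 3.90, while Dysf, the ferlin of muscle, was at 6.31. Trim72, a muscle protein of membrane patches, was below 5 at 4.50 (adjusted p = 0.0016 from limma). Capn1, a calpain subunit, was at 7.04.

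Of 10 glycan enzymes that make or mask galectin ligands, on N-glycans and in part on O-glycans, 9 were above 5 and 6 above 8. Mgat2 was at 10.83, B4galt1, which adds galactose, at 10.54, Mgat4b at 9.92 and B3gnt2, which extends lactosamine chains, at 9.89. Mgat5, the branching enzyme whose product galectin-3 binds well, had 3 probe sets between 4.24 and 7.16. St6gal1, whose sialic acid masks sites for galectin-1, was at 8.37 with 1 probe set and 5.11 with the other. Gcnt1, which branches O-glycans, was at 5.87, Mgat3, which adds the bisecting sugar of N-glycans, at 5.68, and Mgat4a at 4.86 did not differ from 5 (adjusted p = 0.12).

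Glycoproteins that carry galectin ligands ranged between 3.68 and 13.93. Of 15 genes 13 were above 5 on both arrays, 12 by limma and 8 above 8. Fn1, which encodes fibronectin, was at 13.93, with its lowest probe set at 8.26. Cd44, a hyaluronan receptor, was at 13.00, but its lowest of 4 probe sets was at 3.40. Lamp1, of the lysosome membrane, was at 12.38 with its single probe set. Lag3 was at 5.28, Muc1 at 5.17, Ptprc at 5.10 and Havcr2, which encodes the galectin-9 receptor Tim-3, at 3.68. Ptprc, with its lowest probe set at 3.58, was above 5 on array 2 only, and Muc1 passed on both arrays but not in limma (adjusted p = 0.067). Havcr2 was below 5 by limma (adjusted p = 2.1e-05).

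**Figure D5:**
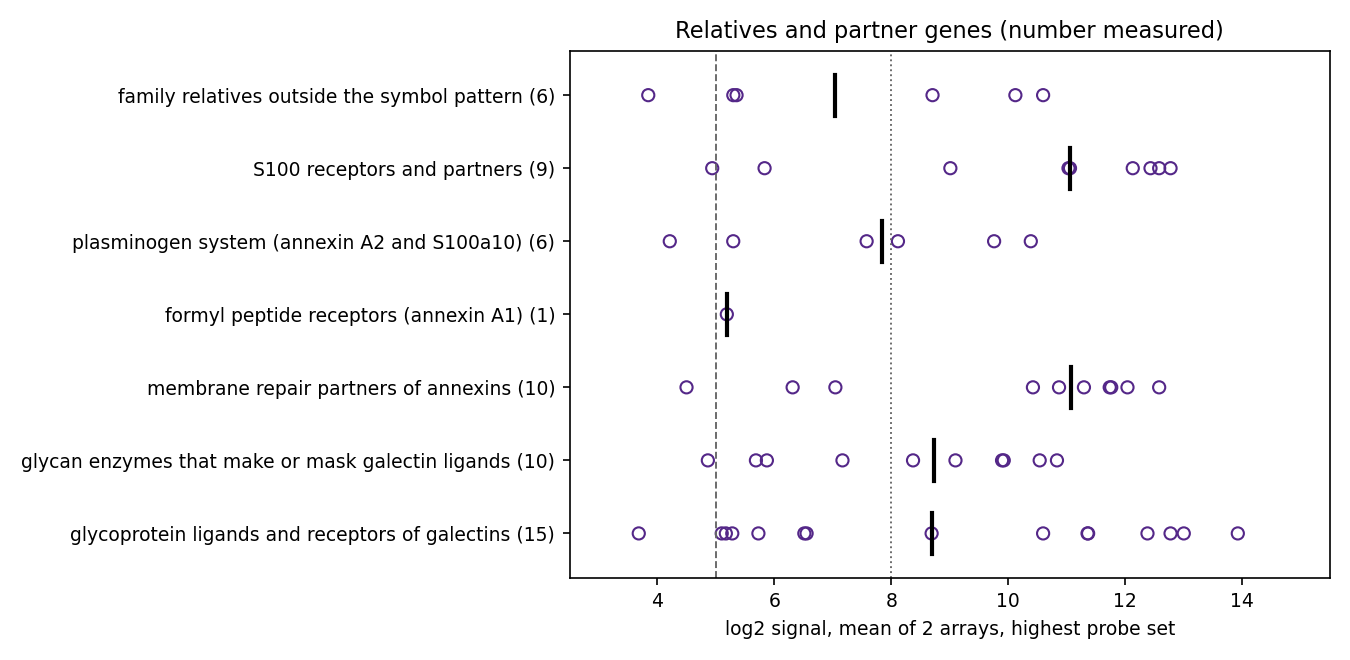
Mean log2 signal of 2 arrays on the horizontal axis for the highest probe set of each relative and partner gene, with 1 circle for each gene, lists down the page, the number of genes measured in brackets and a black bar at the median of the list. Dashes mark 5 and dots 8 (log2), and the medians are 11.06 for S100 partners, 11.08 for membrane repair and 5.19 for the single formyl peptide receptor.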

How the data were processed

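For each of the 2 CH cell arrays the authors deposited 1 log2 signal for every probe set. Per the study's methods the arrays went through RMA and quantile normalisation jointly with public data, but whether these log2 signals stem from it, and tool versions, are not given in the sources used here. RMA sets background by model, and a limit on its signals therefore separates genes from noise only roughly. Of 45101 probe sets, 64 controls were left out. Of the rest, 34945 name 1 gene in the platform annotation, 932 several, and 9160 were not listed. Symbols were looked up in the GRCm38.p6 gene table, which matched 34741 probe sets and changed 0 symbols. The fit used limma 3.58.1 in R 4.3.3 with an intercept alone and eBayes on signal minus 5, two-sided, and was tested on simulated data. Python 3.11.15, numpy 2.4.6, pandas 2.3.3 and matplotlib 3.10.9 did the rest. The number of arrays limits the precision, and p-values measure only the spread between 2 pools. The members and lists were chosen with earlier results of these data known. Named were all members, up to 4 highest and 4 lowest genes of partner lists, shortened where values were alike, and up to 2 highest markers of each cell type. Other markers and St6gal1 were named after their values were seen. A protein sequence table was not used here.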

Additional observations from a re-analysis of the deposited data

How the results depend on the processing

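No paired analysis was possible because the labels name a single group. The limits of 12 and the alternatives for probe set agreement, for the difference between arrays, for family medians and for the partner and marker lists were chosen after seeing the data. Counts fell with a higher limit by construction. At a limit of 8 the galectin count was 4 of 8 and the limma count 21 of 50 probe sets, and at 12 the counts were 1 galectin, 3 S100 genes and 3 annexins. Without probe sets ending in _s_at, _x_at or _a_at, 5 galectins and 8 annexins were still measured, and 4 and 5 of them were above 5. Genes with probe sets on both sides of the limit numbered 5 of 14 at a limit of 6 and 8 at a limit of 8, against 3 at 5. Other counts of the 3 families and of limma stayed within 1.5 times of the values reported, under limits of 6 and of 6.04, the median over probe sets, quantile normalization, an adjusted p under 0.01 and a filter on means above 4. A filter on means above 4 can remove no probe set above 5. The arrays were already alike before quantile normalization, with medians of 5.54 and 5.52. Neither setting could therefore change the counts much. Leaving out 1 array gave 7 galectins, 9 to 10 S100 genes and 9 annexins. With the median over probe sets, only the levels of the 14 genes with more than 1 probe set could change. Of these 14 levels, 13 moved by more than the SD between arrays, most of all that of Anxa2, to 6.07. The counts above 5 stayed at 7, 9 and 9. The family medians were then 7.49, 8.56 and 6.82 for galectins, S100 genes and annexins, against 7.72, 9.23 and 10.68. With the median over probe sets 0 B cell and 0 endothelial markers were above 5. With quantile normalization the level of none of the 30 genes moved by more than the SD between arrays. A limma fit without 1 array was not run, as it leaves no residual degrees of freedom.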

Other observations

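Of 6 measured relatives outside the numbered symbols, 5 were above 5 and 3 above 8. Lgals3bp, a secreted glycoprotein that binds galectins, was at 10.69 and 10.50 on arrays 1 and 2, Lgalsl, a protein related to galectins, at 10.04 and 10.21, and S100pbp at 8.64 and 8.77, with its lowest probe set at 4.94. Grifin, a lens protein of the galectin fold, was at 5.48 and 5.22, and S100b, known from glia, at 5.26 and 5.34, both below the 95th percentile of the receptor probe sets, 6.04. S100g, a calcium carrier of the gut, was at 3.88 and 3.81 and below 5 by limma (adjusted p = 3.2e-05).

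The 30 promoter windows, from the 23 members with a window, had a median of 4 CpG dinucleotides in 300 bases, against 7 over all windows. Several genes have more than 1 window, with for Anxa9 windows of 36 and 3 and for Anxa4 windows of 20 and 3. The windows of S100a4, S100a6, Anxa1, Anxa2 and Anxa5 held 2, 6, 3, 13 and 16, while all of these genes were above 12 on both arrays.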
